A study of Xenopus laevis with 51 samples.

Results

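The eye opposite an optic nerve crush was compared with the eye of frogs that had no surgery, 3 days after the operation. The comparison rests on 6 of the 51 RNA-seq libraries of the series, chosen by their labels: 3 libraries of unoperated eyes from frogs whose other optic nerve had been crushed in the orbit (contralateral eyes), and 3 libraries of surgically naive eyes. The series as a whole follows gene expression in hindbrain after spinal cord transection and in eye after optic nerve crush in Xenopus laevis, and 21 of its libraries are eye. All 6 libraries came from whole eyes of an albino strain, taken from postmetamorphic juveniles of 1 to 3 months whose sex was not determined, with 6 eyes pooled per library. All eyes were dissected from frogs under MS222 anaesthesia. The operated frogs had also been anaesthetised with MS222 for surgery and kept afterwards in rearing water with gentamicin, and naive frogs had no surgery. Effects of the crush of the other nerve, of anaesthesia at surgery and of housing after surgery therefore cannot be told apart in this comparison. The study used the contralateral eye as the control of the crushed one. It stated that this eye also responds to the crush of the other nerve, and chose it to set direct apart from indirect responses. Naive eyes were included to assay the indirect response, and contralateral eyes diverged from them in the study's principal component analysis. The comparison asks how far the contralateral eye differed from an untouched eye.

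A whole frog eye holds neural retina, pigment epithelium, lens, cornea and conjunctiva, sclera with cartilage, iris, extraocular muscle remnants and vessels. The axons of retinal ganglion cells leave it through the optic nerve, and cutting or crushing one nerve spares the axons of the other eye. Crushed and contralateral eyes of a time point were taken from the same operated frogs, and both eyes share the circulation of the animal. Expression is given as FPKM (fragments per kilobase of transcript, scaled to the mapped fragments of the library), 1 value for each of 24381 gene entries and library, made by the authors. X. laevis is allotetraploid, so that many genes have an L and an S copy (homeologs), and most reads that could belong to both went to the copy with the better alignment score, with the rest divided at random. In pooled tissue, fewer cells of a type and less RNA per cell cannot be told apart.

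One contralateral library stood apart. Contralateral replicate 3 carries the letter B in its library name, which the labels do not explain, and neither the other 2 contralateral libraries nor any naive library carries it. The 3 naive libraries lay 0.227 to 0.251 from each other, measured as the root mean square of their differences over all entries on the log2(FPKM + 1) scale, and contralateral replicates 1 and 2 lay 0.338 apart. Contralateral replicate 3 lay 0.484 and 0.655 from those 2 libraries. It lay 0.31 from replicate 3 of the crushed eye at 3 days, which also carries the letter B. Its FPKM summed to 1003392, against 678455 to 795388 in the other 5 libraries, and its crystallin entries, which encode lens proteins, took 44.1% of that sum against 25.8% to 33.7%. The FPKM that 1 read added to a weakly expressed entry was 1.32 times that of naive replicate 1 in this library and 0.869 to 1.02 times in the other 5. The FPKM values used here give no read count per library, so no counting interval was computed. Fewer entries were at 0 in it, 492 against 896 to 1200. The comparison was therefore also fitted without it.

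**Figure D1:**
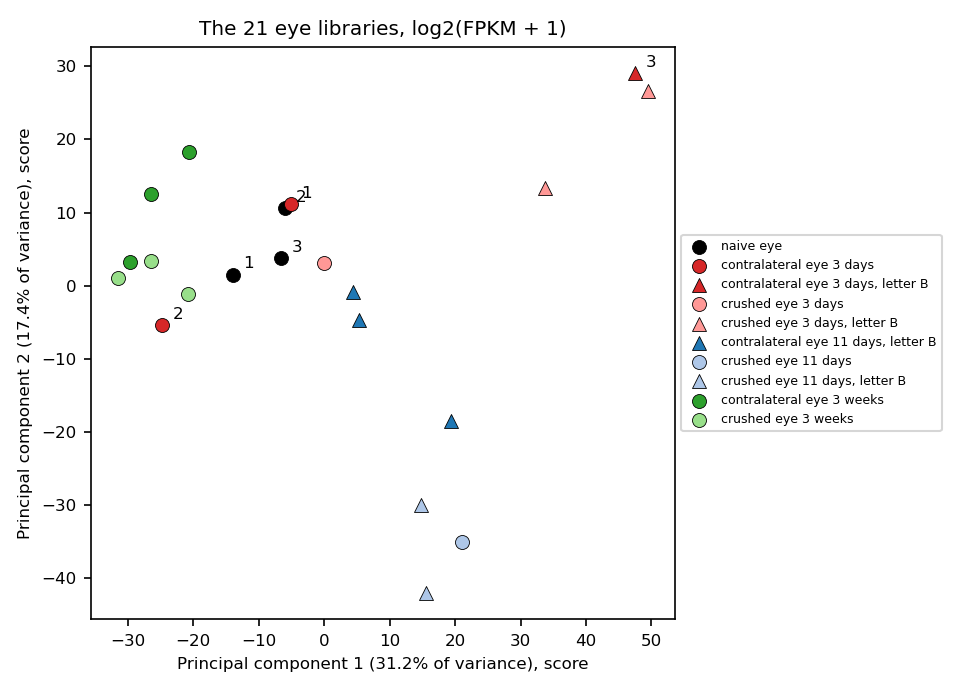
Scores of the 21 eye libraries on the first and second principal component of log2(FPKM + 1), with 1 point per library, triangles for libraries with the letter B and numbers for the replicates of naive and contralateral eyes at 3 days. Contralateral replicate 3 sits at 47.5 on the first component beside replicate 3 of the crushed eye at 49.5, whereas the naive libraries and contralateral replicates 1 and 2 sit between -24.7 and -5.1.

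Each entry was tested by limma after conversion to log2(FPKM + 0.5), and entries were called where the p adjusted by the Benjamini-Hochberg method did not exceed 0.05. With all 6 libraries, 22 of 21598 tested entries were called (0.102%), 2 higher (0.00926%) and 20 lower (0.0926%) in the contralateral eye, and 3161 (14.6%) had an unadjusted p of at most 0.05. Without contralateral replicate 3, 1680 of 21540 entries were called (7.80%), 603 higher (2.80%) and 1077 lower (5.00%). With all 7 eye groups in one fit, which takes the spread from 21 libraries, 861 entries were called (3.99%), 248 higher (1.15%) and 613 lower (2.84%). All 22 entries called with 6 libraries were also called without replicate 3, and 20 of them were called in the fit of 21 libraries. The fit without replicate 3 and the fit of 21 libraries shared 591 calls, which were 35.2% of the first list and 68.6% of the second. The counts depended on single libraries. Without naive replicate 1, 2 or 3 as well, the 1680 calls became 387, 13 and 8, and without contralateral replicate 2 they became 601. Leaving out any naive library or contralateral replicate 2 from the 6 left 0 calls, and leaving out contralateral replicate 1 left 1. The p-values measure only the spread between these pools of eyes. The median log2 difference over all tested entries was -0.01, on values that are already scaled. How the authors scaled the FPKM between libraries is not stated in the sources used here.

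In all 22 called entries replicate 3 lay on the same side as the other 2 contralateral libraries, and no contralateral library overlapped a naive one. Replicate 3 entered the fit that called them, and that fit favours a small spread within groups, so this agreement is largely set by the selection. Groups that do not overlap were found in 22.9% of all tested entries. The lower entries included growth factor carriers and modulators of epithelium (FGFBP1, IGFBP2, SLURP1, MAL), proteins of the extracellular matrix (TNC, TGFBI, MATN4, CHAD, HAPLN1), the collagenase MMP8 and the protease-like PRSS35. The Golgi enzymes GALNT6 and B4GALT3, which add sugars to proteins, enzymes of amino sugar, amino acid and xenobiotic metabolism (GFPT1, ASNS, CYP1A1), CKAP4 and MCM4 were also among them. IL17D and 1 entry without a symbol were higher.

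**Figure D2:**
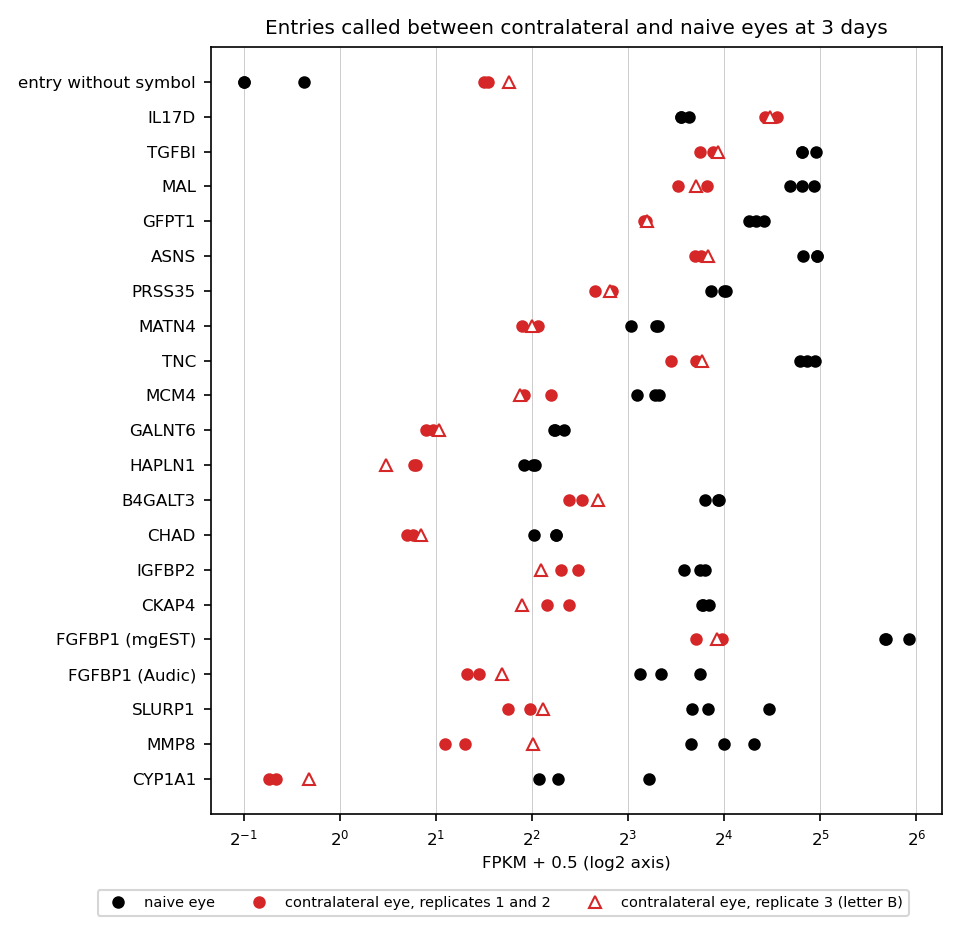
FPKM + 0.5 on a log2 axis in each of the 6 libraries for 21 of the 22 entries called between contralateral and naive eyes, with black points for naive libraries, red points for contralateral replicates 1 and 2 and open triangles for contralateral replicate 3. In each entry the 3 contralateral libraries lie together on one side of the 3 naive libraries, including replicate 3, which stands apart over the whole transcriptome.

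FGFBP1, a secreted protein that releases fibroblast growth factors from the matrix and is expressed by surface epithelia, had the smallest adjusted p. Its more abundant entry (JGIv7b scaffold 000146311, 175774 to 178688, plus strand) had 50.64, 60.11 and 50.95 FPKM in the naive libraries and 12.57, 15.24 and 14.66 FPKM in the contralateral ones (log2 fold change -1.89, SE 0.12, adjusted p = 0.0255, limma). The naive mean was thus 3.81 times the contralateral mean. Its second entry (JGIv7b scaffold 000302805, 584120 to 586267, plus strand) had 9.63, 12.95 and 8.19 FPKM in naive and 2.23, 2.0 and 2.72 FPKM in contralateral libraries (log2 fold change -1.92). Both copies were low in every contralateral library.

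SLURP1, a small secreted protein of cornea and skin that acts on acetylcholine receptors in mammals, had 21.67, 13.77 and 12.17 FPKM in naive and 3.44, 2.87 and 3.84 FPKM in contralateral libraries (log2 fold change -2.04, SE 0.23). MAL, a membrane protein of apical sorting in epithelium and of myelin, had 25.15, 30.19 and 27.58 FPKM against 13.66, 11.00 and 12.53 FPKM (log2 fold change -1.13). Of 4 further MAL entries 1 was called lower, in the fits without replicate 3 and of 21 libraries (adjusted p = 0.0176 and 0.0391), at 3.88 ± 0.979 FPKM in naive and 1.23 ± 0.331 FPKM in contralateral eyes (SD, n = 3). IGFBP2, which binds insulin-like growth factors, had 13.44, 12.97 and 11.45 FPKM against 4.44, 5.07 and 3.78 FPKM. The naive and contralateral values of these genes did not overlap, although SLURP1 varied among the naive libraries.

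MMP8, a neutrophil and fibroblast collagenase in mammals, had the second-lowest fold change of the 22. It had 15.44, 19.35 and 12.11 FPKM in naive and 1.63, 1.97 and 3.52 FPKM in contralateral libraries (log2 fold change -2.52, SE 0.27, adjusted p = 0.0482, limma), so that the naive mean was 6.58 times the contralateral one. Replicate 3 had the highest contralateral value. A second entry with this symbol went the other way, at 5.34, 4.91 and 6.44 FPKM in naive and 7.97, 7.51 and 13.32 FPKM in contralateral libraries, and did not pass the test in any of the 3 fits (adjusted p = 0.234 with 6 libraries).

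The 5 called matrix genes were lower by 1.00 to 1.41 on the log2 scale. TNC, the adhesion-modulating glycoprotein tenascin C, had 28.54, 30.29 and 27.07 FPKM in naive and 12.54, 10.37 and 13.10 FPKM in contralateral libraries (log2 fold change -1.23, SE 0.12, adjusted p = 0.0382). Its other entry had 8.58, 6.90 and 8.03 FPKM against 3.67, 2.58 and 3.25 FPKM and was called without replicate 3 and with 21 libraries (adjusted p = 0.0178 and 0.00554) but not with 6 (0.0619). TGFBI, a cell-adhesion protein abundant in the cornea, had 27.56, 30.54 and 27.53 FPKM against 14.27, 12.91 and 14.77 FPKM. Neither TNC entry overlapped between the groups.

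Of the other 3, CHAD and HAPLN1 are typical of cartilage, which in the frog eye lies in the sclera. The tissue these transcripts came from was not tested. CHAD, a leucine-rich cartilage protein, had 4.25, 3.57 and 4.24 FPKM in naive and 1.12, 1.19 and 1.30 FPKM in contralateral libraries (log2 fold change -1.41). MATN4, a matrilin that forms filaments in matrix, had 9.46, 7.70 and 9.31 FPKM against 3.67, 3.23 and 3.51 FPKM. HAPLN1, which links hyaluronan to proteoglycans, had 3.27, 3.59 and 3.53 FPKM against 1.23, 1.21 and 0.90 FPKM. A second and more abundant MATN4 entry had 46.0 ± 1.92 FPKM in naive and 18.7 ± 4.24 FPKM in contralateral eyes (SD, n = 3), and was called without replicate 3 and with 21 libraries (adjusted p = 0.00694 and 0.00409).

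GFPT1, the first and rate-limiting enzyme of amino sugar synthesis, had 19.58, 20.78 and 18.66 FPKM in naive and 8.60, 8.48 and 8.66 FPKM in contralateral libraries (log2 fold change -1.15, SE 0.09). GALNT6, which starts mucin-type O-glycosylation, had 4.19, 4.54 and 4.21 FPKM against 1.36, 1.46 and 1.54 FPKM. B4GALT3, a galactosyltransferase, had 14.79, 14.90 and 13.42 FPKM against 4.72, 5.22 and 5.93 FPKM. All 3 enzymes take part in the making of glycoproteins, and the contralateral means of GFPT1, GALNT6 and B4GALT3 were 0.436, 0.337 and 0.368 times the naive ones. GFPT1's second entry, at 26.8 ± 0.771 FPKM in naive and 16.9 ± 2.84 FPKM in contralateral eyes, was called without replicate 3 and with 21 libraries (adjusted p = 0.0188 and 0.0298).

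ASNS, which makes asparagine and is a target of the amino acid stress factor ATF4, had 27.85, 30.79 and 30.79 FPKM in naive and 13.03, 12.44 and 13.79 FPKM in contralateral libraries (log2 fold change -1.16, SE 0.10, adjusted p = 0.0382). CKAP4, a protein of the endoplasmic reticulum, had 13.82, 13.28 and 13.13 FPKM against 4.71, 3.95 and 3.21 FPKM. PRSS35, a serine protease homologue, had 15.77, 15.49 and 14.10 FPKM against 6.64, 5.82 and 6.5 FPKM. MCM4, a subunit of the replicative helicase, had 8.06, 9.22 and 9.53 FPKM against 4.10, 3.28 and 3.18 FPKM. In each of these genes the contralateral libraries differed from each other by less than they differed from any naive library, which calling entries of small spread favours.

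CYP1A1, the monooxygenase induced through the aryl hydrocarbon receptor, had the lowest fold change of the 22. The called entry (JGIv7b scaffold 000012518, 1166460 to 1177887, minus strand) had 4.34, 8.79 and 3.71 FPKM in naive and 0.10, 0.13 and 0.30 FPKM in contralateral libraries (log2 fold change -3.10, SE 0.31). The other entries of this symbol did not move together. The entry on scaffold 000007197 had 0.75, 1.57 and 0.59 FPKM against 0.10, 0.13 and 0.22 FPKM and was called with 21 libraries (adjusted p = 0.0266). The entry on scaffold 000067832 was higher in the contralateral eye, at 0.26, 0.49 and 0.49 FPKM against 1.16, 1.19 and 1.98 FPKM, and was called without replicate 3 and with 21 libraries (adjusted p = 0.0472 and 0.0112) but not with 6 (0.117). The list of aryl hydrocarbon receptor genes as a whole had a median log2 difference of -0.13 over 28 tested entries. The CYP1A1 entry above was the only one called with 6 libraries (3.57%, against 0.0926% of all entries called lower). Without replicate 3, 1 was called higher (3.57%, against 2.80%) and 1 lower (3.57%, against 5.00%). With 21 libraries, 1 was called higher (3.57%, against 1.15%) and 2 lower (7.14%, against 2.84%).

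IL17D, a cytokine of the interleukin 17 family that non-immune cells make, had 11.22, 11.89 and 11.21 FPKM in naive and 22.87, 20.95 and 21.77 FPKM in contralateral libraries (log2 fold change 0.91, SE 0.09, adjusted p = 0.0382). A second and more abundant IL17D entry had 19.01, 20.80 and 20.03 FPKM against 49.45, 41.33 and 34.55 FPKM and was called without replicate 3 and with 21 libraries (adjusted p = 0.00821 and 0.0129) but not with 6 (0.0667). Both entries lay above every naive library in each contralateral one. The entry without a symbol was listed at 0, 0 and 0.27 FPKM in naive and at 2.33, 2.42 and 2.90 FPKM in contralateral libraries (log2 fold change 2.40, SE 0.22).

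Some entries called in the larger fits had larger differences, with replicate 3 between the other contralateral libraries and the naive ones. MUC16, a membrane mucin of the ocular surface, had 15.06, 22.83 and 17.82 FPKM in naive and 1.20, 0.81 and 4.02 FPKM in contralateral libraries (log2 fold change -3.66, SE 0.20, adjusted p = 0.00327 without replicate 3, and 0.00617 with 21 libraries). With 6 libraries its adjusted p was 0.0676. PHYH, a peroxisomal hydroxylase, had 10.32, 12.74 and 7.52 FPKM against 0.37, 0.16 and 3.28 FPKM (log2 fold change -3.79 without replicate 3). EPGN, an epidermal growth factor receptor ligand, had 5.80, 9.64 and 8.25 FPKM against 0.95, 0.63 and 4.23 FPKM. DMBT1, a scavenger protein of mucosal surfaces, had 48.85, 67.97 and 44.45 FPKM against 9.88, 5.70 and 35.15 FPKM. In all 4 genes replicate 3 had the highest contralateral value and still lay below every naive library. PHYH and EPGN were also called with 21 libraries (adjusted p = 0.0265 and 0.0205), and DMBT1 was not (0.092).

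Of the monooxygenases, CYP4B1 had 33.19, 30.06 and 21.95 FPKM in naive and 7.88, 0.82 and 4.93 FPKM in contralateral libraries, and FMO5 had 4.03, 3.81 and 2.30 FPKM against 0.14, 0.15 and 0.76 FPKM. Both were called without replicate 3 (adjusted p = 0.0471 and 0.00894) and with 21 libraries (0.0112 and 0.00164). Complement C3, the central protein of that cascade, had 1.10, 1.62 and 3.08 FPKM in one entry against 0.06, 0.00 and 0.10 FPKM and was called in the same fits (adjusted p = 0.0241 and 0.0246). TYR, the enzyme of melanin synthesis, whose transcript is measured here in albino frogs, had 6.84, 15.94 and 8.82 FPKM against 1.85, 0.45 and 5.87 FPKM and was called without replicate 3 (adjusted p = 0.0247) but not with 21 libraries (0.0643). The other genes among the 10 largest falls of either fit were CDIP1, HMCN1, IGHE, NOXO1 and WFDC5. IGHE, an immunoglobulin heavy chain, had 22.07 FPKM in replicate 3 and 0.16 and 0.35 FPKM in replicates 1 and 2, against 1.57 to 9.75 FPKM in naive eyes, so its fall rests on leaving replicate 3 out.

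The largest rises were smaller. Those named from the fit of 21 libraries had to lie above every naive library in all 3 contralateral ones, so replicate 3 shared them by selection. Those named from the fit without replicate 3 had no such requirement, and replicate 3 did not share all of them. SLC25A46, a mitochondrial outer membrane protein, had 2.54, 2.40 and 2.1 FPKM in naive and 6.08, 5.80 and 8.01 FPKM in contralateral libraries (adjusted p = 0.0111 without replicate 3, 0.00554 with 21 libraries and 0.0536 with 6). S100A1, a calcium-binding protein, had 4.31, 3.53 and 2.53 FPKM against 6.37, 8.30 and 10.04 FPKM. GCG, which encodes glucagon, had 2.58, 3.15 and 2.82 FPKM against 6.17, 5.65 and 8.18 FPKM. COX7A1, a subunit of cytochrome c oxidase, had 9.61, 14.37 and 5.33 FPKM against 28.87, 27.29 and 65.47 FPKM, and SAMD7, a photoreceptor repressor, 0.10, 0.04 and 0.25 FPKM against 1.29, 1.92 and 5.14 FPKM. All 5 were called with 21 libraries, and so were AKR1D1, CTXN3, PLSCR3 and TMEM244.

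By contrast, GNG7, a G protein subunit, had 4.97, 5.82 and 6.21 FPKM in naive eyes and 17.47, 15.19 and 3.26 FPKM in contralateral replicates 1, 2 and 3 (adjusted p = 0.00821 without replicate 3 and 0.671 with 21 libraries). SYN1, a synaptic vesicle protein, had 6.48, 4.02 and 5.55 FPKM against 11.26, 29.69 and 2.77 FPKM, and CROCC and NKG7 were likewise above the naive libraries in replicates 1 and 2 and not in replicate 3. One entry of CTXN3 and 1 of CRYGB were listed at 0 in every naive library, and P2RX7 had 0.609 ± 0.404 FPKM in naive and 2.32 ± 1.01 FPKM in contralateral eyes (SD, n = 3).

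Gene lists gave the changes by function, with the share of their tested entries called set against the share over all tested entries. Of 67 entries for collagens and other matrix proteins, 2 were called lower with 6 libraries, 24 without replicate 3 (35.8%, against 5.00% of all entries) and 24 with 21 libraries (35.8%, against 2.84%), and none was called higher in any of the 3 fits. Their median log2 difference was -0.56 with 6 libraries, and 97.0% of them were below 0, against 51.3% of all tested entries. OGN, a small leucine-rich proteoglycan of cornea and bone, had 142.81, 175.93 and 158.38 FPKM in naive and 65.42, 47.94 and 95.74 FPKM in contralateral libraries (adjusted p = 0.0105 without replicate 3 and 0.00393 with 21 libraries). DCN, which encodes decorin, a regulator of collagen fibrils, had 110.05, 146.23 and 142.28 FPKM against 60.87, 40.56 and 78.37 FPKM. COL10A1, a collagen of hypertrophic cartilage, had 2.88, 3.17 and 3.61 FPKM against 1.33, 0.95 and 0.80 FPKM. SPARC, the most abundant gene of the list, had 664.69, 603.65 and 595.61 FPKM against 538.93, 482.41 and 401.35 FPKM in its larger entry and did not pass the test (adjusted p = 0.294, 0.145 and 0.0944 in the 3 fits). The summed level of the list was 2510 to 2540 FPKM in naive and 1580 to 1810 FPKM in contralateral libraries, without overlap (p = 0.1 by an exact permutation test, two-sided, which cannot give a smaller p with 3 libraries a group). Sums of several other lists did not overlap either, some of them higher in contralateral eyes.

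Of the metalloproteinases, enzymes that remodel matrix, and their inhibitors, 1 of 33 tested entries was called lower with 6 libraries, and none was called higher in any fit. Without replicate 3, 10 of 34 were called lower (29.4%, against 5.00% of all entries), and with 21 libraries 4 of 33 (12.1%, against 2.84%). MMP2, a gelatinase of stromal cells, had 113.84, 124.07 and 124.22 FPKM in naive and 75.65, 55.49 and 69.61 FPKM in contralateral libraries (adjusted p = 0.0215 without replicate 3 and 0.00709 with 21 libraries). MMP14, its membrane-bound activator, had 46.50, 43.70 and 41.22 FPKM against 33.17, 28.16 and 27.49 FPKM. MMP3, or stromelysin, had 11.62, 11.60 and 10.88 FPKM against 1.57, 1.5 and 7.18 FPKM, and its lower level in replicates 1 and 2 was the most significant of any entry without replicate 3, together with CDIP1 (adjusted p = 0.001). The summed level of this list was 500 to 516 FPKM in naive and 368 to 375 FPKM in contralateral libraries, replicate 3 included.

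Genes of the amino acid stress response, which ATF4 switches on when amino acids are short or proteins misfold, were called lower in 1 of 63 tested entries with 6 libraries. Without replicate 3, 20 were called lower (31.7%, against 5.00% of all entries), and with 21 libraries 16 (25.4%, against 2.84%). None was called higher. ALDH18A1, which makes the precursor of proline, had 43.73, 43.01 and 46.42 FPKM in naive and 25.09, 26.73 and 29.58 FPKM in contralateral libraries (adjusted p = 0.0105 without replicate 3 and 0.00162 with 21 libraries). SESN2, a stress-induced inhibitor of mTORC1, had 8.15, 7.89 and 7.18 FPKM against 4.28, 3.47 and 4.47 FPKM, and MTHFD1L, a mitochondrial folate enzyme, 3.72, 3.92 and 3.56 FPKM against 2.36, 1.78 and 2.66 FPKM. The transcripts of ATF4 itself, which is regulated mostly at translation, had 266 ± 5.51 FPKM in naive and 246 ± 17.8 FPKM in contralateral eyes in one entry and 149 ± 3.2 and 160 ± 23.6 FPKM in the other (SD, n = 3) and passed the test in none of the fits. The median log2 difference of the list was close in the 3 contralateral libraries, at -0.23, -0.26 and -0.27.

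Of the heat shock proteins and chaperones, none was called with 6 libraries, and 1 was called higher without replicate 3 (1.79%, against 2.80% of all entries). Lower calls were 12 of 56 tested entries without replicate 3 (21.4%, against 5.00%) and 9 of 55 with 21 libraries (16.4%, against 2.84%). The called entries named here fold proteins in the endoplasmic reticulum. SERPINH1, the collagen chaperone, had 12.26, 10.15 and 11.30 FPKM in naive and 6.12, 5.30 and 4.87 FPKM in contralateral libraries (adjusted p = 0.0169 and 0.00554). HYOU1 had 13.36, 14.00 and 13.20 FPKM against 8.66, 8.11 and 9.65 FPKM, and the larger HSP90B1 entry had 76.62, 73.72 and 76.27 FPKM against 44.35, 40.67 and 61.50 FPKM. All contralateral libraries lay below all naive ones in these 3 genes, which picking called entries favours. Of the 55 tested entries, 16 lay below every naive library in all 3 contralateral ones and 2 lay above. Groups did not overlap in 22.9% of all tested entries. The whole list had a median log2 difference of -0.22 and -0.35 in contralateral replicates 1 and 2 and of -0.01 in replicate 3.

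**Figure D3:**
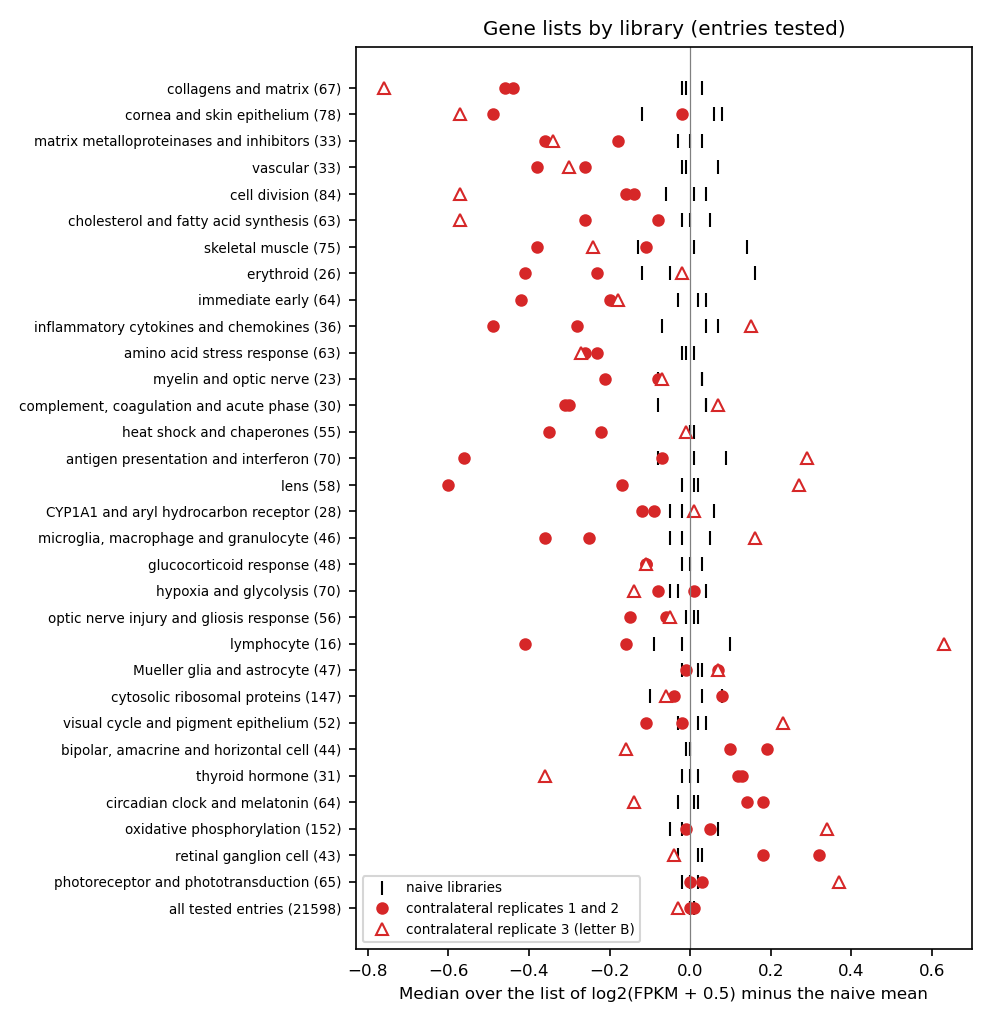
Median over each gene list of log2(FPKM + 0.5) minus the mean of the naive libraries, with 1 mark per library and the number of tested entries in brackets. Collagens and matrix lie at -0.44, -0.46 and -0.76 in contralateral replicates 1, 2 and 3, whereas antigen presentation lies at -0.07, -0.56 and 0.29 and the lymphocyte list at -0.16, -0.41 and 0.63, so that replicate 3 is on the other side of 0.

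Entries for cell division were called lower in 1 of 84 with 6 libraries. Without replicate 3, 16 were called lower (19.0%, against 5.00% of all entries), and with 21 libraries 15 (17.9%, against 2.84%). In each of the larger fits 1 was called higher (1.19%, against 2.80% and 1.15%). MCM5 and MCM6 are subunits of the replication helicase, as is MCM4. MCM5 had 4.83, 4.22 and 4.29 FPKM in naive and 2.23, 2.1 and 1.49 FPKM in contralateral libraries, and MCM6 5.55, 5.17 and 6.34 FPKM against 2.23, 2.19 and 1.17 FPKM (adjusted p = 0.00357 and 0.0035 with 21 libraries). The second MCM4 entry had 4.31, 5.02 and 4.35 FPKM against 2.12, 2.0 and 2.51 FPKM. PCNA, the sliding clamp of DNA polymerase, had 33.46, 31.13 and 32.42 FPKM against 23.81, 26.56 and 23.86 FPKM in its most abundant entry and did not pass the test (adjusted p = 0.15, 0.0525 and 0.288 in the 3 fits). Its other entry had 24.44, 27.62 and 29.14 FPKM against 13.11, 15.30 and 16.82 FPKM and was called without replicate 3 and with 21 libraries (adjusted p = 0.015 and 0.027). The list's median was -0.14 and -0.16 in replicates 1 and 2 and -0.57 in replicate 3, so that library lay farthest from the naive eyes here.

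Of 63 entries for cholesterol and fatty acid synthesis, 92.1% were below 0 with 6 libraries, against 51.3% of all tested entries, and none was called. This share fell to 74.6% without replicate 3, against 49% of all tested entries. The list's median log2 difference was -0.26, -0.08 and -0.57 in contralateral replicates 1, 2 and 3. Without replicate 3, 10 were called lower (15.9%, against 5.00% of all entries), and with 21 libraries 9 (14.3%, against 2.84%). In each of the larger fits 1 was called higher (1.59%, against 2.80% and 1.15%). INSIG1, the sterol sensor that holds back sterol synthesis, had 19.76, 19.32 and 19.31 FPKM in naive and 12.49, 13.10 and 10.61 FPKM in contralateral libraries. It was called without replicate 3 and with 21 libraries (adjusted p = 0.0171 and 0.0137), and no contralateral library overlapped a naive one.

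The list of antigen presentation and interferon genes depended on replicate 3 throughout. Without that library 21 of 70 entries were called lower (30.0%, against 5.00% of all entries) and 1 higher (1.43%, against 2.80%). None was called with 6 libraries or with 21. B2M, the light chain of class I molecules, had 105.99, 98.53 and 98.88 FPKM in naive eyes and 35.17, 27.84 and 132.72 FPKM in contralateral replicates 1, 2 and 3 in one entry, and 237.59, 343.12 and 293.65 FPKM against 136.99, 108.64 and 392.69 FPKM in the other. HLA-C, a class I heavy chain, had 261.37, 324.25 and 251.26 FPKM against 75.55, 59.24 and 216.17 FPKM (log2 fold change -2.04, adjusted p = 0.00616 without replicate 3 and 0.214 with it). PSMB9, a subunit of the immunoproteasome, had 25.38, 27.39 and 27.01 FPKM against 9.91, 7.08 and 34.32 FPKM, and CD74, the invariant chain of class II, 120.61, 124.03 and 145.12 FPKM against 65.68, 50.76 and 163.12 FPKM. Replicates 1 and 2 thus lay below every naive library in these genes, and replicate 3 lay above every naive library in all but HLA-C. The summed markers of immune cells were also highest in replicate 3. The lymphocyte list summed to 91.1, 69.5 and 101 FPKM in contralateral replicates 1, 2 and 3 against 72.4 to 87.2 FPKM in naive eyes, and the list of microglia, macrophages and granulocytes to 236, 232 and 316 FPKM against 273 to 304 FPKM. The part of these cells in the differences between libraries was not tested.

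Contralateral replicate 3 was not used in the fit without it, so the calls of that fit could be read in it, although the naive libraries were shared. Of the 1077 entries called lower, replicate 3 lay below every naive library in 732 (68.0%) and above every naive library in 190 (17.6%), and over all tested entries it lay below in 42.1% and above in 36.2%. Of the 603 entries called higher, it lay above every naive library in 297 (49.3%) and below in 205 (34.0%). All 16 cell division entries called lower lay below every naive library in replicate 3, and so did 23 of 24 matrix entries, 17 of 20 of the amino acid stress response and 8 of 10 of the metalloproteinases. Of the 21 antigen presentation entries, 3 lay below and 12 above.

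**Figure D4:**
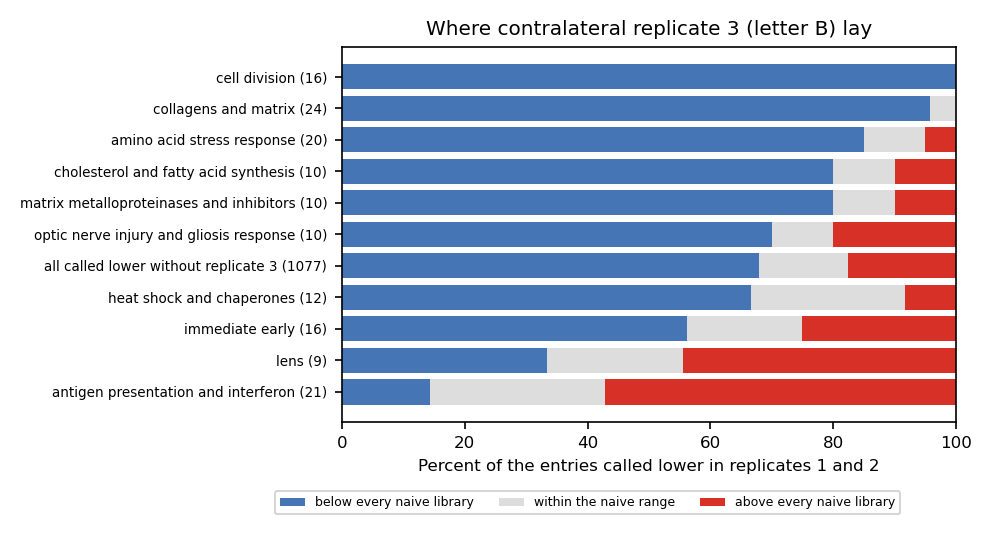
Percent of the entries called lower without contralateral replicate 3 in which that library lay below every naive library (blue), within the naive range (grey) or above every naive library (red), for all 1077 such entries and for each list with at least 9, with the number of entries in brackets. Cell division (16 of 16) and matrix (23 of 24) are blue almost throughout, and antigen presentation is red in 12 of 21.

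Of 78 tested entries for the epithelium of cornea and skin none was called with 6 libraries. Their median log2 difference was -0.44 there, and 83.3% of them were below 0, against 51.3% of all tested entries. Without replicate 3, 5 were called lower (6.41%, against 5.00% of all entries) and 2 higher (2.56%, against 2.80%), and with 21 libraries 2 were called lower (2.56%, against 2.84%), shares near those of all entries. CLDN4, a tight junction protein, had 52.72, 63.41 and 53.78 FPKM in naive and 26.90, 24.94 and 32.45 FPKM in contralateral libraries in one entry and 47.60, 56.94 and 51.94 FPKM against 35.83, 34.98 and 31.69 FPKM in the other. KRT12, the keratin of corneal epithelium, had 526.15, 541.94 and 463.40 FPKM against 364.54, 287.87 and 360.10 FPKM in its most abundant entry, which was called without replicate 3 only (adjusted p = 0.0399). DSG2, a desmosomal cadherin, had 10.14, 11.76 and 10.63 FPKM against 6.87, 7.27 and 7.28 FPKM. The list summed to 2740 to 3190 FPKM in naive and 2110 to 2680 FPKM in contralateral libraries. Its median was -0.02 in contralateral replicate 1 and -0.49 and -0.57 in replicates 2 and 3. The part of the amount of surface epithelium in each pool was not tested beyond these values.

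A defining marker of the tissue was high in all 6 libraries, GNAT1, the rod transducin, at 3180 ± 168 FPKM in naive and 3700 ± 593 FPKM in contralateral eyes (SD, n = 3). Of 65 photoreceptor entries none was called with 6 libraries, 5 were called higher (7.69%, against 2.80% of all entries) and 3 lower (4.62%, against 5.00%) without replicate 3, and 1 was called higher with 21 libraries (1.54%, against 1.15%). GNGT2, the cone transducin gamma subunit, had 65.89, 80.21 and 70.25 FPKM in naive and 113.14, 113.01 and 191.74 FPKM in contralateral libraries (adjusted p = 0.0217 without replicate 3, 0.00916 with 21 libraries and 0.148 with 6). GRK7, the cone opsin kinase, had 47.13, 45.72 and 42.86 FPKM against 61.65, 62.66 and 50.06 FPKM.

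The retinal ganglion cell list, of cells whose axons form the optic nerve, had 5 of 43 entries called higher without replicate 3 (11.6%, against 2.80% of all entries) and none in the other 2 fits. RBPMS2, an RNA-binding marker of these cells, had 75.61, 77.53 and 79.44 FPKM in naive and 111.44, 116.37 and 93.20 FPKM in contralateral libraries (log2 fold change 0.55, adjusted p = 0.0171 without replicate 3 and 0.153 with it). INA, an axonal intermediate filament protein, had 3.61, 4.23 and 4.40 FPKM against 6.90, 7.65 and 5.99 FPKM in its smaller entry. ELAVL3, a neuronal RNA-binding protein, had 7.51, 8.57 and 7.38 FPKM against 12.22, 12.09 and 7.55 FPKM, and ISL1, a transcription factor of ganglion and inner retinal cells, 3.70, 4.14 and 3.98 FPKM against 6.58, 10.45 and 1.93 FPKM. All contralateral libraries lay above all naive ones in RBPMS2 and INA, and replicate 3 lay within the naive range in ELAVL3 and below it in ISL1. The ganglion cell list summed to 986 to 998 FPKM in naive and 1080 to 1250 FPKM in contralateral libraries. VSX1, a bipolar cell transcription factor, had 52.74, 53.27 and 58.31 FPKM against 71.26, 80.86 and 65.00 FPKM in one entry. Of 44 bipolar, amacrine and horizontal cell entries, 2 were called higher without replicate 3 (4.55%, against 2.80% of all entries). In that fit 1 was called lower (2.27%, against 5.00%). With 21 libraries none was called higher and 1 lower (2.27%, against 2.84%).

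Genes known to respond to nerve injury were not called higher in the contralateral eye. Of 56 tested entries of the injury and gliosis list none was called higher in any of the 3 fits, and 10 were called lower without replicate 3 (17.9%, against 5.00% of all entries) and 2 with 21 libraries (3.57%, against 2.84%). ATF3, a transcription factor induced in axotomised neurons, had 1.69, 1.71 and 1.5 FPKM in naive and 0.65, 0.81 and 1.31 FPKM in contralateral libraries (adjusted p = 0.0357 without replicate 3 and 0.245 with it). The crushed eyes of 3 days had 11.01 to 18.97 FPKM, and the direct test of crushed against contralateral eyes gave a log2 difference of 3.43 (adjusted p = 0.00849). LEP, which encodes leptin, had 2.42, 7.00 and 5.40 FPKM in naive, 1.00, 1.06 and 1.52 FPKM in contralateral and 5.41 to 8.48 FPKM in crushed eyes. It was called lower than in naive eyes without replicate 3 and with 21 libraries (adjusted p = 0.0444 and 0.0108) and differed between crushed and contralateral eyes by 2.13 on the log2 scale (adjusted p = 0.0217). In this entry the crushed and naive levels overlapped, and the contralateral level lay below both. Without the letter B libraries of both groups, which left crushed replicate 2 alone, the log2 differences between crushed and contralateral eyes were 2.29 for this entry and 3.99 for ATF3. A second LEP entry was at 0.21 FPKM or less in every naive and contralateral library and at 12.61 to 14.45 FPKM in crushed eyes. The second ATF3 entry had 3.37, 3.53 and 3.68 FPKM in naive and 2.26, 2.2 and 3.74 FPKM in contralateral eyes, against 21.48 to 29.37 FPKM in crushed eyes. GAP43, a growth cone protein, had 47.3 ± 3.17 FPKM in naive and 56.6 ± 8.24 FPKM in contralateral eyes and was not called.

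Immediate early genes, which are induced within minutes of a stimulus, were not called with 6 libraries. Without replicate 3, 1 of 64 entries was called higher (1.56%, against 2.80% of all entries). Lower calls were 16 without replicate 3 (25.0%, against 5.00%) and 5 with 21 libraries (7.81%, against 2.84%). JUNB, a subunit of AP-1, had 19.06, 18.78 and 18.01 FPKM in naive and 8.29, 10.01 and 10.53 FPKM in contralateral libraries (adjusted p = 0.0107 and 0.0176 in these fits). CTGF, a matrix-inducing growth factor, had 85.62, 93.56 and 102.43 FPKM against 53.78, 62.52 and 55.71 FPKM. KLF2, a transcription factor of endothelium and lymphocytes, had 15.90, 13.29 and 15.62 FPKM against 7.30, 8.37 and 10.41 FPKM and was called without replicate 3 only. All contralateral libraries lay below all naive ones in these 3 genes, but not in the whole list. Of the 16 entries called lower without replicate 3, that library lay below every naive library in 9 (56.2%, against 68.0% of all such entries). It lay above every naive library in 4 (25.0%, against 17.6%).

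ANGPTL4, an inhibitor of lipoprotein lipase that fasting and glucocorticoids induce in mammals, was called higher in both entries without replicate 3 and with 21 libraries, at 16.60, 18.59 and 17.68 FPKM in naive and 27.91, 26.62 and 28.50 FPKM in contralateral libraries (log2 fold change 0.64 with 6 libraries, adjusted p = 0.0726) and at 10.91, 10.26 and 9.26 FPKM against 20.49, 16.42 and 17.70 FPKM. The glucocorticoid list around it had a median of -0.11 over 48 entries. DIO2, which activates thyroid hormone, had 20.66, 18.65 and 16.96 FPKM against 10.24, 9.59 and 7.17 FPKM, and was called in the same 2 fits. Of 65 clock entries, 7 were called higher without replicate 3 (10.8%, against 2.80% of all entries), among them the repressors NR1D2 and NR1D1 and the output factor DBP, and 2 lower (3.08%, against 5.00%). With 21 libraries, 1 of 64 was called higher (1.56%, against 1.15%) and 1 lower (1.56%, against 2.84%). NR1D2 had 16.72, 15.18 and 15.38 FPKM against 24.47, 23.13 and 21.39 FPKM, whereas NR1D1 and DBP lay below every naive library in replicate 3. The hour of dissection is not given in the sources used here, so its part in these values was not tested.

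The lens list summed to 250000 to 272000 FPKM in naive libraries and to 250000, 178000 and 448000 FPKM in contralateral replicates 1, 2 and 3. One CRYGB entry, a gamma crystallin, was low in all 3 nonetheless, at 696.45, 490.37 and 937.96 FPKM against 2070.58, 2008.06 and 1916.00 FPKM in naive libraries (adjusted p = 0.00974 without replicate 3, 0.042 with 21 libraries and 0.0751 with 6), whereas the most abundant CRYGB entry had 34291.00, 20932.50 and 75620.80 FPKM against 33181.50, 30246.90 and 31179.30 FPKM. Near-identical crystallin copies can share reads, so the split between these entries is uncertain. The globin HBA1 had 3197.96, 2352.05 and 2502.68 FPKM in naive and 1571.27, 1329.13 and 802.26 FPKM in contralateral libraries, and HBZ 24.01, 15.79 and 13.67 FPKM against 6.07, 4.59 and 3.85 FPKM, both called without replicate 3 and with 21 libraries. Without replicate 3, 3 of 27 tested erythroid entries were called lower (11.1%, against 5.00% of all entries) and 1 higher (3.7%, against 2.80%). With 21 libraries, 2 of 26 were called lower (7.69%, against 2.84%) and 1 higher (3.85%, against 1.15%). The erythroid list summed to 7280 to 10300 FPKM in naive and 4500 to 5890 FPKM in contralateral libraries, and the vascular list to 251 to 272 and 189 to 231 FPKM, both without overlap. Sums without overlap were common among the 31 lists, in both directions, so they do not set these 2 lists apart. The erythroid sum was lowest in replicate 3, at 4500 FPKM, although the median log2 difference of the list there was -0.02.

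The other eye groups place these levels in time. Contralateral eyes of 11 days all carry the letter B and those of 3 weeks do not, so time and letter cannot be told apart at 11 days. SLURP1 was the only entry of 21646 called between contralateral eyes of 3 and 11 days (0.00462%), with 16.71 to 18.97 FPKM at 11 days and a log2 difference of -2.24 (adjusted p = 0.0113). None of 21624 entries was called between 3 days and 3 weeks, where 2744 (12.7%) had an unadjusted p of at most 0.05. Without replicate 3, 249 entries (1.15%) were called against 11 days and 5 (0.0232%) against 3 weeks, and 7 of the 22 entries were among the former, both FGFBP1 entries, SLURP1, CYP1A1, B4GALT3, IGFBP2 and MMP8. These tests reuse the contralateral libraries of 3 days on which the 22 were selected, so this overlap is partly set by the selection. CYP1A1 had 2.05 to 6.66 FPKM in contralateral eyes of 11 days and 0.10 to 0.17 FPKM in those of 3 weeks (log2 difference between 3 and 11 days -2.69, adjusted p = 0.0342 without replicate 3 and 0.316 with it).

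Some of the 22 had levels near the naive ones at 3 weeks, without a call in the direct test. TNC had 23.5 FPKM in contralateral eyes of 3 weeks, against 12.0 FPKM at 3 days and 28.6 FPKM in naive eyes (adjusted p = 0.3 between 3 days and 3 weeks). CHAD had 4.06 FPKM, against 1.20 and 4.02 FPKM (0.0932), and PRSS35 13.4 FPKM, against 6.32 and 15.1 FPKM (0.206). ASNS had 8.42 to 11.82 FPKM at 11 days and 16.44 to 21.87 FPKM at 3 weeks, below the naive 27.85 to 30.79 FPKM. The entry without a symbol had at least 1.26 FPKM in each library of the 6 other eye groups, and the naive eyes alone were at or near 0.

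None of the 22 entries was called between crushed and contralateral eyes of 3 days, where 42 of 22078 entries were called (0.190%). This test also reuses the contralateral libraries on which the 22 were selected. Without replicate 3, 90 entries (0.408%) were called there and TGFBI was the only one of the 22 among them, with 24.86 to 25.55 FPKM in crushed and 12.91 to 14.77 FPKM in contralateral eyes (adjusted p = 0.0487 without replicate 3 and 0.0574 with it). The crushed eyes had levels near the contralateral ones in most of the others, such as FGFBP1 at 13.48 to 20.76 FPKM in the larger entry and TNC at 11.08 to 14.59 FPKM. Both eyes were taken from the same frogs, but the labels do not say which libraries pair. With the replicate number as a block, 149 entries were called (0.675%) and TGFBI was again the only one of the 22 (log2 difference 0.82, adjusted p = 0.0317). Replicates 1 and 3 of the crushed eye carry the letter B as well. Without the letter B libraries of both groups, crushed replicate 2 alone was set against contralateral replicates 1 and 2. There limma called 0 of 21611 entries (0.00%), with an unadjusted p of at most 0.05 in 1157 (5.35%). With crushed replicate 2 alone on its side, these counts do not show whether the difference was lost. A p above the threshold does not show that both eyes were alike.

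**Figure D5:**
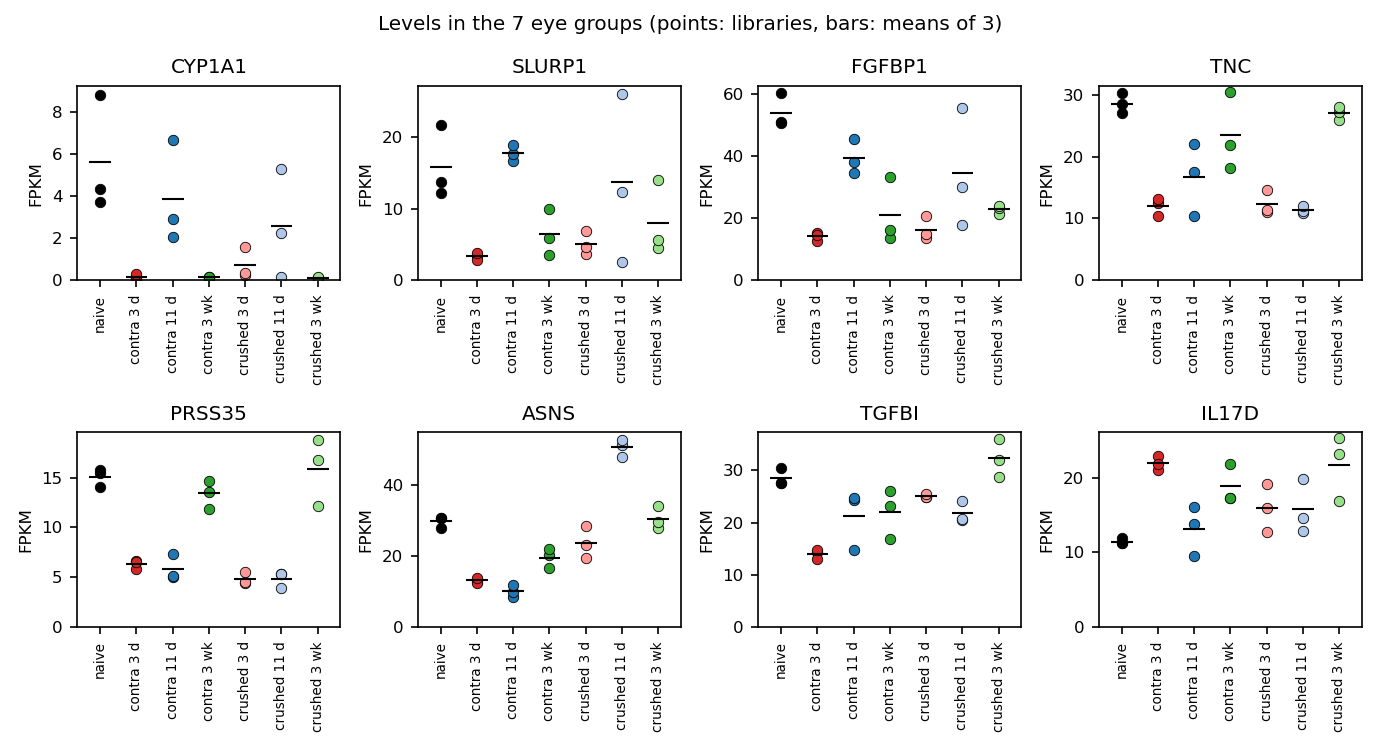
FPKM of 8 of the 22 called entries in the 21 eye libraries, with 1 panel per gene, 1 point per library and a bar at the mean of 3 libraries (contra: contralateral; d: days; wk: weeks). CYP1A1 is near 0 in contralateral eyes of 3 days and 3 weeks and at 2.05 to 6.66 FPKM at 11 days, and TGFBI is at 12.91 to 14.77 FPKM in contralateral and 24.86 to 25.55 FPKM in crushed eyes of 3 days.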

How the data were processed

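Total RNA of 6 pooled eyes per library was depleted of ribosomal RNA and sequenced as stranded libraries. The authors aligned reads with Bowtie2 2.2.9 and TopHat2 2.1.1 to the Xenbase v9.1 genome, used the Mayball gene models and estimated the deposited FPKM with Cufflinks and CuffDiff2, with most reads shared by homeologs given to the better alignment and the rest divided at random. Entry positions are those in the entry names, which cite JGIv7b scaffolds and not the genome named for alignment. The FPKM used here give no read count per library, so precision was taken from the spread of 3 libraries per group.

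Samples were grouped by their labels. Entries whose mean reached 0.45 FPKM in one group or the other were tested with limma 3.58.1 (R 4.3.3, eBayes with trend, two-sided) on log2(FPKM + 0.5), and every adjusted p is from this test with Benjamini-Hochberg adjustment over all tested entries. Fold changes of low entries are understated by the added 0.5. The same contrast was fitted without contralateral replicate 3 and with all 7 eye groups. Direct tests of contralateral eyes of 3 days against those of 11 days and 3 weeks and against crushed eyes used the same model. The summed level of each of 31 gene lists was compared by an exact permutation test. Tables and figures were made with Python 3.11.15 and pandas 2.3.3. The procedure was tested on simulated data.

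Named genes were the called entries with a symbol, the 10 largest rises and falls without overlap whose higher group reached 1 FPKM on average in each of the other 2 fits, the most abundant and most significant entries of each list, and further copies of these. Some of those the rule selects are given only within counts. The members and lists were chosen with earlier results of these data known. Alternatives were pseudocounts of 0.1 and 1, other filters, median-of-ratios scaling, the library letter as a covariate, library weights, a replicate block and leaving out each library. Library weights used limma's gene-by-gene estimate, since the default estimate did not converge. Hindbrain libraries were not used. Some of the named genes are not reported here.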

Additional observations from a re-analysis of the deposited data

Results flagged for a closer look

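Some genes named above differed between the contralateral eye of 3 days and another group of operated frogs by a direct limma test. Crushed minus contralateral eyes at 3 days gave log2 differences of 3.43 and 3.01 for the 2 ATF3 entries (adjusted p = 0.00849 for both), 2.13 for LEP (0.0217), 2.42 for the second MMP8 entry (0.0451) and -1.42 for RBPMS2 (0.0296). SLURP1 differed between contralateral eyes of 3 and 11 days by -2.24 (adjusted p = 0.0113).

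In 4 of the genes named above 2 groups of operated frogs lay on opposite sides of every naive library. Many named genes were picked for a difference from naive eyes, and no share over all tested entries was computed for this pattern. Contralateral eyes of 3 days and naive eyes alone did not overlap in 22.9% of all tested entries. The crushed eye of 3 days had a mean of 14.8 FPKM for ATF3, above the naive libraries, and of 39.6 FPKM for RBPMS2, below them, whereas the contralateral eye lay on the other side. SERPINH1 had 14.3 FPKM in contralateral eyes of 3 weeks, above the naive libraries, and VSX1 had 50.4 FPKM in those of 11 days, below them. The direct limma tests of SERPINH1 and VSX1 against contralateral eyes of 3 days did not pass (adjusted p = 0.0932 and 0.436). Whether the change from naive eyes differed between the groups was not tested by an interaction term, since both changes use the same naive libraries.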

How the results depend on the processing

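With 6 libraries, the 22 calls (2 higher, 20 lower) became 861 (248 and 613) in the fit of all 7 eye groups, 1858 (666 and 1192) with the library letter as a covariate there and 4302 (1933 and 2369) with library weights, which gave contralateral replicate 3 the lowest weight of 0.157. The higher calls fell to 1 with a pseudocount of 0.1 and with a minimum of 0.45 FPKM in every library. Leaving out 1 library gave 0 to 1680 calls, 0 to 603 higher and 0 to 1077 lower. Without replicate 3, the 1680 calls (603 and 1077) became 924 (259 and 665) with weights, and leaving out a further library gave 8 to 2368, 0 to 1065 and 8 to 1303. These alternatives and those of the direct tests were chosen after seeing the data. Leaving out replicate 3 moved the direct tests from 1 to 249 calls against 11 days, from 0 to 5 against 3 weeks and from 42 to 90 against crushed eyes. Without the letter B libraries of both groups only crushed replicate 2 was left on its side, so nothing is concluded from the calls of that fit. The 42 became 149 with a replicate block, where the deviations of same-numbered crushed and contralateral libraries correlated at -0.198, 0.541 and 0.667. Same-numbered naive and contralateral libraries come from different frogs, and the correlations of their deviations were 0.0182, -0.31 and 0.135, so the numbers do not pair them. With a replicate block 0 calls (0 higher, 0 lower) were made with 6 libraries and 6 (0 higher, 6 lower) without replicate 3. The mean distance between libraries of different groups was 1.19 times that within groups, and 1 to 1.5 times with 1 library left out, reaching 1.46 and 1.5 without contralateral replicates 2 and 3. Of the 21 called entries reported here, 15 to 21 were still called under the other pseudocounts, filters, scaling, eye-group fits and weights, and none under the block or without any library but replicate 3. None of these 21 reversed its direction under an alternative run. Another 3 named entries did, none of them called in the settings concerned: an ATF4 entry (log2 fold change 0.09, and -0.02 to 0.17 with 1 library left out), the most abundant CRYGB entry (0.26, -0.23 to 0.69 with 1 library left out and -0.08 with the library letter as a covariate) and ISL1 (0.37, and -0.10 to 0.99 with 1 library left out). The cause of these changes was not tested. The FPKM used give no counting interval for weakly expressed entries.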
